A study of Mus musculus with 4 samples.

Results

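The genes described here are neurotrophic factors and their receptors: the neurotrophin ligands Bdnf and Ntf3, the neurotrophin receptors Ntrk2, Ntrk3 and Ngfr, the GDNF family co-receptors Gfra1 and Gfra2, and the receptor tyrosine kinase Ret. The 8 genes were listed by name, and 7 of them had a probe set that the array's annotation gives to 1 gene symbol, out of 19938 such genes. Ntf3 was not analysed here. Each of the 7 was read by 1 probe set. The arrays measured total RNA from mouse embryos of the outbred ICR strain, with no other genotype or treatment in the labels, at embryonic day 17.5, from the cerebellum (tissue of 13 mice pooled), the olfactory bulb (14 mice), the pontine nucleus (15 mice) and the superior colliculus (16 mice). Axons of the pontine nucleus, in the hindbrain, end in the cerebellum as mossy fibres, and the superior colliculus receives visual input in the midbrain. There was 1 pooled preparation and 1 Affymetrix array per region, so values carry neither SD nor p-value, and region and preparation cannot be told apart. The number of arrays limits precision throughout.

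Neurotrophins are secreted proteins that support the survival, growth and synapse formation of neurons. Each binds a Trk receptor tyrosine kinase, BDNF mainly TrkB (encoded by Ntrk2) and NT-3 (encoded by Ntf3) mainly TrkC (encoded by Ntrk3), and all bind the p75 receptor encoded by Ngfr, which lacks a kinase domain. Ligands of the GDNF family bind a membrane-anchored co-receptor, GFRα1 for GDNF and GFRα2 for neurturin, and the complex activates Ret. In the embryonic brain these pathways are known for roles in motor, dopaminergic and sensory relay neurons, and in the cerebellum BDNF and NT-3 act on granule and Purkinje cells.

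Levels are log2 signals, so 1 log2 unit is a 2-fold difference. Comparison was limited to the 10908 genes that exceeded a floor of 8.56, the 50th percentile of the levels of all genes, on any array. To be called higher in a region, a gene had to exceed each of the other 3 arrays by 1 log2 unit or more, and to be called lower it had to fall short of each by as much. Its spread is the highest minus the lowest of the 4 levels. As a yardstick for noise, 203 vomeronasal receptor and beta defensin genes, which brain tissue is not known to use, had a 95th percentile level of 7.33, and 95% of them had a spread of at most 0.58, with a maximum of 0.88. That yardstick comes from dim probe sets of the same 4 arrays and does not cover differences between animals or dissections. Levels of different genes are not compared with each other, since probe sets differ in sensitivity.

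Of the 7 measured genes, 6 were compared, all of them receptors, and each of these lay above 8.56 on all 4 arrays. Bdnf lay below that level on every array. Of the 6 receptors, 5 had a spread of at least 1 log2 unit, and the median spread was 1.55. Over all compared genes, 15% had such a spread and the median was 0.39. By the stricter rule for 1 region, 3 receptors were called: Gfra2 higher in the superior colliculus, Ret higher in the pontine nucleus and Ntrk3 lower in the olfactory bulb. Among all compared genes 4.58% were called higher or lower in some region. The members were chosen with earlier results of these data known, so these counts and spreads may reflect the choice of genes. Ntrk3, Gfra1, Gfra2, Bdnf and Ntrk2 were highest in the superior colliculus, Ngfr in the cerebellum and Ret on the pontine array. How all compared genes divide by their highest region was not worked out, so no leaning of these genes to a region is read from this. For Bdnf and Ntrk2 the lead of the superior colliculus was only 0.10 and 0.02. The arrays carried the markers of their labelled regions. The 6 genes listed for the cerebellum had a mean level of 10.9 there against 7.6 to 8.1 elsewhere. Of the genes listed for the olfactory bulb, 6 of 6 were called higher there, as were 5 of 5 for the pontine nucleus. For the superior colliculus 4 of 5 were called higher. The exception, Pax3, read 9.75 there against 10.59 in the cerebellum. By comparison, 0.972% of all compared genes were called higher for the bulb, 0.798% for the pontine array and 0.715% for the colliculus. These marker lists were chosen with earlier results of these data known, so their counts and levels are no independent check of the dissections. In these bulk samples, fewer cells of a type and less RNA per cell cannot be told apart.

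**Figure D1:**
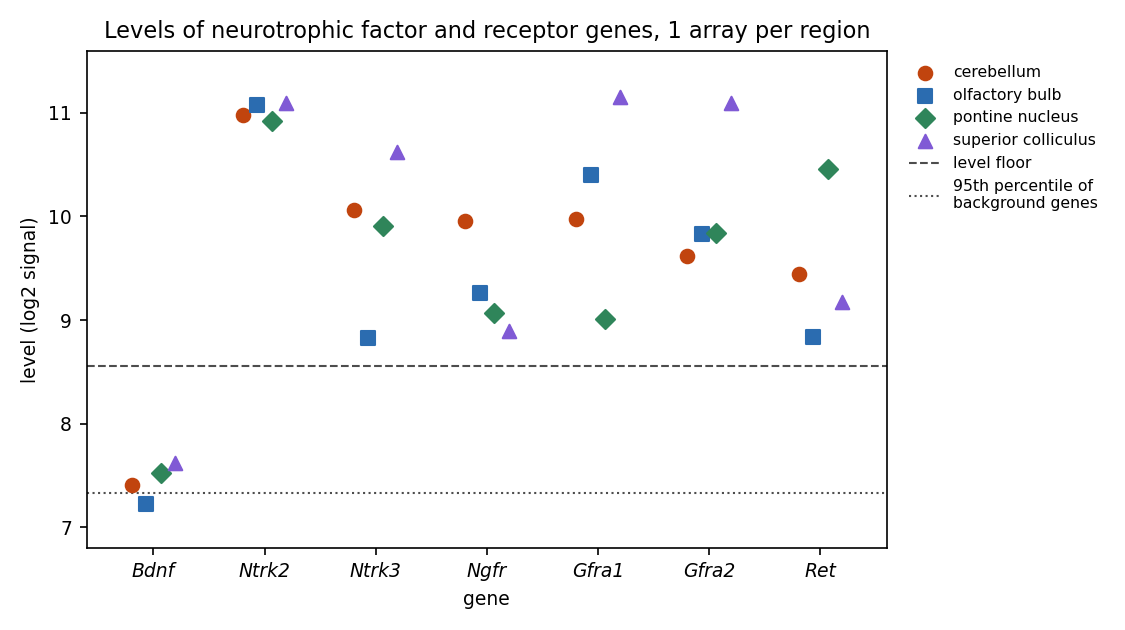
Level (log2 signal, vertical axis) of the 7 measured genes on the 4 arrays; each symbol is 1 array, the dashed line is the level floor of 8.56 and the dotted line the 95th percentile of the background genes, 7.33. The 4 levels of Ntrk2 lie together between 10.92 and 11.10, while those of Gfra1 run from 9.01 to 11.15.

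Sequence upstream of the start site is shown for Gfra1 and Ngfr, which differed between regions, and for Ntrk2, which varied little, together with 1 of the upstream windows of Bdnf, so that the letters can be set beside the levels below. RefSeq windows of assembly GRCm38.p6 were matched by symbol for 5 of the 8 genes, 12 windows in all, of which Bdnf, a gene with many alternative first exons, had 7. Ntrk3, Gfra2 and Ret, the receptors called in a region, had no window. Windows are the 250 bases before the start, written 5′ to 3′ on the gene's strand. Capitals mark exact matches, on either strand, of GGGCGG (the GC box bound by Sp1), CAGCTG (an E-box), TAATTA (a homeodomain core) or TGACG (the core of the cyclic AMP response element). No match overlapped another in the 4 windows.
Gfra1, chr19:58455399-58455648, minus strand: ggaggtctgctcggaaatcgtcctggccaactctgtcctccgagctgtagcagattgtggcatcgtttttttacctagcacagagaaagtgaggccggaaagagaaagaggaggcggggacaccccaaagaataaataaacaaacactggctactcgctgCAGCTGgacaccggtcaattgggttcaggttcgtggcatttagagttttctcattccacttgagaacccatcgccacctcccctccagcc
Ngfr, chr11:95587699-95587948, minus strand: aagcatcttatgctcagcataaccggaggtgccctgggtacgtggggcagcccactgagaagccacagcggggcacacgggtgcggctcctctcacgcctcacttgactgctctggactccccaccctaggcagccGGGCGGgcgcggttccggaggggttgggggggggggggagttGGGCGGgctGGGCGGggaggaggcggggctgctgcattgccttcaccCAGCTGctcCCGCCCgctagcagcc
Ntrk2, chr13:58806319-58806568, plus strand: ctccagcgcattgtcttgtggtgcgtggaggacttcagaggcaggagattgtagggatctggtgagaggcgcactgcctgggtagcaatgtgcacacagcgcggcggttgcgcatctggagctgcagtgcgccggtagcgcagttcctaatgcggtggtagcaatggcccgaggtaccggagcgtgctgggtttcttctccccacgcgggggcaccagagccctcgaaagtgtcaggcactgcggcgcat
Bdnf, chr2:109692186-109692435, plus strand: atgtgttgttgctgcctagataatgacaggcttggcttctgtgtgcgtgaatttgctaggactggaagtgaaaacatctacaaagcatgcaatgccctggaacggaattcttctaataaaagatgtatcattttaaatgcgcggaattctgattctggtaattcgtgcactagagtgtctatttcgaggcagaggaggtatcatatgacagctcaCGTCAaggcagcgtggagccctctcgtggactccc
The Gfra1 window held 1 CAGCTG, which was present in 13.0% of all 32851 windows. The Ngfr window held 1 CAGCTG and 4 copies of GGGCGG, a motif found in 32.7% of all windows, and its GC content was 70.4% against a median of 52.4% over all windows. The Ntrk2 window held none of the 4 motifs at a GC content of 62.8%. The Bdnf window held 1 TGACG, read on the other strand as CGTCA, a motif found in 17.8% of all windows. It was the only one of the 7 Bdnf windows with that motif. TAATTA was in none of the 12 windows and in 4.84% of all windows. These matches describe letters and show no binding.

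Among the ligands, Bdnf read 7.62 in the colliculus, 7.52 in the pontine nucleus, 7.41 in the cerebellum and 7.22 in the bulb. The level in the olfactory bulb lay below the 95th percentile of the background genes and the other 3 lay just above it. Its spread of 0.40 was within that of the background genes, so no order of the regions can be read from it, and a level this low is no measure of absence. Its probe set's annotation lists 11 curated RefSeq transcripts, and the alternative first exons are not told apart. The other ligands of both families that were named also lay below the floor. Ntf5, which encodes neurotrophin-4, a further TrkB ligand, lay between 7.01 and 7.17. The 4 GDNF family ligands Gdnf, Nrtn, Artn and Pspn had no level above 8.56 on any array. Gdnf itself read 7.95 in the cerebellum, 7.64 in the colliculus, 7.52 in the bulb and 7.44 on the pontine array, a spread of 0.51 that also lay within the range of the background genes.

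Ntrk2, the TrkB gene, was the steadiest member. It read 11.10 in the colliculus, 11.08 in the bulb, 10.98 in the cerebellum and 10.92 on the pontine array. The spread was 0.18 log2 units, or 1.13-fold, and none of the 6 pairs of regions differed by more than that. The annotation of its probe set lists 3 curated transcripts, so the full-length receptor and the truncated form that lacks the kinase, which glia carry, are not told apart. Over the same arrays the 7 markers of astrocytes and radial glia had a mean level that fell from 10.90 in the cerebellum through 10.66 (bulb) and 10.57 (pontine array) to 10.23 in the colliculus. Single markers did not all follow this order. Aqp4 was called higher in the pontine nucleus, at 10.68 against at most 9.25. Gja1 and Aldoc were highest in the bulb, at 10.62 and 12.08, and Fabp7 ranged only from 13.93 to 14.03. The mean of the 5 general neuron markers was lowest in the cerebellum, at 12.74, and lay between 12.99 and 13.12 elsewhere. The part of either cell class in the Ntrk2 level was not tested.

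Ntrk3, the TrkC gene, was low in the olfactory bulb. It read 10.62 in the colliculus, 10.06 in the cerebellum, 9.91 in the pontine nucleus and 8.83 in the bulb. The olfactory bulb lay 1.08 log2 units below the next lowest region, the pontine nucleus, a 2.11-fold gap, and 1.79 units, or 3.46-fold, below the superior colliculus. Among all compared genes 0.431% were called lower in the olfactory bulb. The cerebellum and the pontine nucleus were 0.15 apart and the superior colliculus lay 0.56 above the cerebellum, both inside the spread of the background genes. The bulb array also stood apart in markers of other cells. The 7 named genes of olfactory ensheathing and Schwann glia had a mean level of 9.38 there against 8.06 to 8.16 elsewhere, the 6 genes of meninges and fibroblasts 8.51 against 7.51 to 7.74, and the 4 genes of the oligodendrocyte lineage 8.97 against 9.47 to 9.60. Of the glia genes Frzb, Npy and Erbb3 were called higher in the bulb, while Mbp was lowest there at 8.92 against at most 9.26 and S100b was highest in the cerebellum at 8.23. Of the fibroblast genes Dcn was called higher in the bulb, at 10.59 against at most 8.65, and the other 5 exceeded the next region by 0 to 0.85. The part of these cells in the Ntrk3 difference was not tested.

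Ngfr, the p75 gene, was highest in the cerebellum. It read 9.96 in the cerebellum, 9.26 in the bulb, 9.07 on the pontine array and 8.89 in the colliculus. The cerebellum exceeded the olfactory bulb by 0.70, or 1.62-fold, which falls short of the size rule for 1 region, and the superior colliculus by 1.07, or 2.10-fold, which passes the rule for a pair. Of all compared genes 3.08% lay at least 1 log2 unit higher in the cerebellum than in the superior colliculus. The other 3 regions lay within 0.37 of each other. All 5 Purkinje cell markers were highest in the cerebellum, with a mean level of 10.88 against 8.43 to 9.11. Pcp4 led the superior colliculus by only 0.07, at 12.08 against 12.01. Car8, Calb1 and Skor2 also stand in the list of cerebellum markers above. The 5 granule lineage markers had a mean of 11.76 in the cerebellum against 9.84 to 10.43, with Atoh1 and Neurod1 highest there. The other 3 were highest in the pontine nucleus, Zic1 at 13.36 against 12.90 in the cerebellum, Pax6 at 11.76 against 11.64 and Barhl1 at 12.50 against 11.25. Ensheathing and Schwann glia are a cell class known for p75. Their genes had a mean of 8.15 in the cerebellum, 9.38 in the bulb, 8.06 on the pontine array and 8.16 in the colliculus. Sox10, Erbb3 and Foxd3 read 8.70, 7.59 and 7.42 in the cerebellum and were highest in the bulb, at 9.34, 8.83 and 8.53. Frzb and Npy were also highest in the bulb, but S100b was highest in the cerebellum at 8.23 and Mbp on the pontine array at 9.26. The part of Purkinje cells, granule cells and glia in the Ngfr difference was not tested.

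The 3 genes of the GDNF receptor complex had different orders of the regions. Gfra1, the GDNF co-receptor, had the widest spread of the 7 genes. It read 11.15 in the colliculus, 10.40 in the bulb, 9.98 in the cerebellum and 9.01 on the pontine array. The superior colliculus exceeded the pontine nucleus by 2.14 log2 units, or 4.41-fold, and 96.9% of all compared genes had a smaller spread than this. Neither end met the rule for 1 region, with the superior colliculus 0.75 above the olfactory bulb and the pontine nucleus 0.97 below the cerebellum, just short of the rule. In pairs, the superior colliculus passed against the cerebellum by 1.17 and the olfactory bulb passed against the pontine nucleus by 1.39. The olfactory bulb and the cerebellum differed by 0.42, which is inside the spread of the background genes.

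Gfra2, the neurturin co-receptor, stood out in 1 region. It read 11.10 in the colliculus, 9.84 in the pontine nucleus, 9.83 in the bulb and 9.62 in the cerebellum. The superior colliculus lay 1.26 log2 units, or 2.39-fold, above the next region, and 0.715% of all compared genes were called higher there. The other 3 regions lay within 0.22 of each other, with the olfactory bulb and the pontine nucleus 0.01 apart.

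Ret, the signalling subunit, was highest where Gfra1 was lowest. It read 10.46 in the pontine nucleus, 9.44 in the cerebellum, 9.17 in the colliculus and 8.84 in the bulb. The pontine nucleus lay 1.02 log2 units, or 2.03-fold, above the cerebellum, at the edge of the size rule, and 1.62 units, or 3.07-fold, above the olfactory bulb. Of all compared genes 0.798% were called higher in the pontine nucleus. With the 4 columns quantile-normalized the gap was 0.985, which no longer meets the rule, while the pontine level of Gfra1 then lay 1.0025 below the cerebellum and met it. Relative to the superior colliculus, the pontine level was 1.29 higher for Ret, 2.14 lower for Gfra1 and 1.26 lower for Gfra2.

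Ret is known in motor and catecholaminergic neurons, and markers of brainstem neuron classes varied on the same arrays. Of 6 genes of cholinergic and motor neurons 5 were named, with a mean level of 8.13 in the pontine nucleus against 7.13 to 7.44 elsewhere. The choline transporter gene Slc5a7 read 10.43 there against at most 7.84, and the vesicular acetylcholine transporter gene Slc18a3 9.77 against at most 8.12. Chat at 7.49, Isl1 at 6.76 and Mnx1 at 6.20 lay below the level floor there. The 8 named genes of monoaminergic neurons had a mean of 7.99 in the pontine nucleus against 7.36 to 7.86, and its members differed in their highest region. The serotonin transporter gene Slc6a4 stood at 8.85 on the pontine array and at most at 7.45 on the others, and Tph2, a serotonin synthesis gene, 8.19 against at most 6.59, which is below the level floor on all 4 arrays. Of the catecholamine synthesis genes, Th was called higher in the olfactory bulb, where Ret was lowest, at 11.33. The next Th level was 9.48 on the pontine array, followed by 8.07 in the cerebellum and 7.76 in the colliculus. Ddc and Dbh lay below the floor throughout. Ddc ranged only from 7.19 in the cerebellum to 7.46 on the pontine array. Dbh stood at 7.29 in the cerebellum and at 6.66 on the pontine array. The voltage-gated sodium channel gene Scn9a, listed for peripheral sensory neurons, read 10.70 against at most 9.53, while Prph at 7.93 and Scn10a at 6.31 lay below the floor. The part of these neurons in the Ret level was not tested.

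Taken by pairs of regions, 13 of the 36 differences of the 6 compared receptors reached 1 log2 unit. The superior colliculus lay above the cerebellum for Gfra1 and Gfra2, which 2.63% of all compared genes did, above the pontine nucleus for the same 2 genes, against 4.12%, and above the olfactory bulb for Ntrk3 and Gfra2, against 2.73%. The pontine nucleus lay above the olfactory bulb for Ntrk3 and Ret, against 2.57%, above the cerebellum for Ret, against 1.88%, and above the superior colliculus for Ret, against 1.72%. The cerebellum lay above the olfactory bulb for Ntrk3, against 2.06%, and above the superior colliculus for Ngfr. The olfactory bulb exceeded another region only for Gfra1, against the pontine nucleus, as 5.2% of all compared genes did. Pairs that share an array are not independent of each other.

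**Figure D2:**
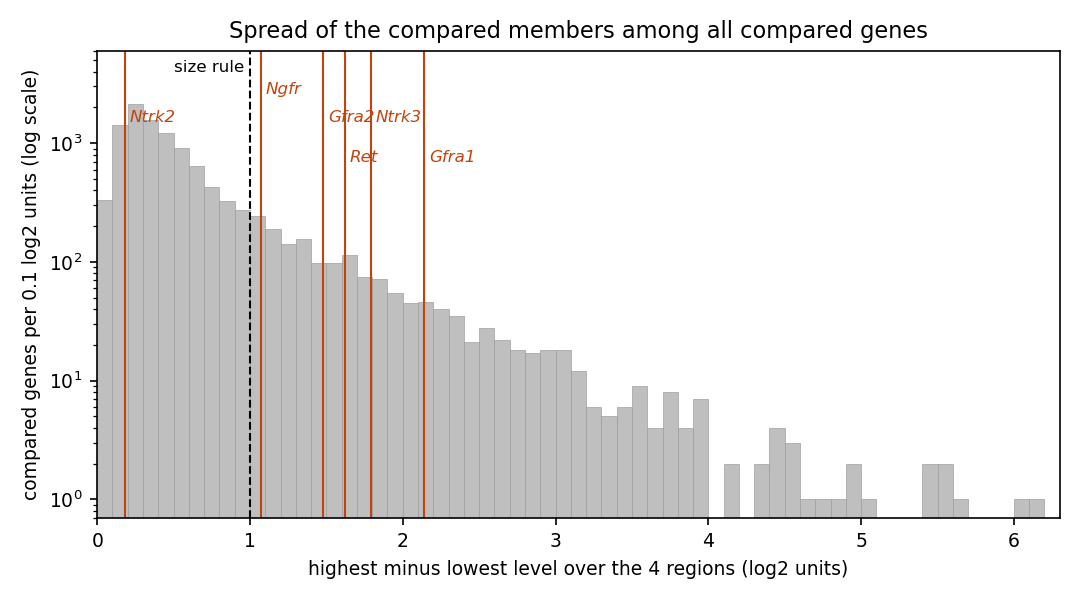
Number of compared genes (vertical axis, log scale) by spread, the highest minus the lowest level over the 4 regions in log2 units (horizontal axis), for all 10908 compared genes; red lines mark the 6 compared receptors and the dashed line 1 log2 unit. Ntrk2 at 0.18 lies among the steadiest genes and the other 5 lie between 1.07 and 2.14, beyond the dashed line.

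For each receptor with a spread of at least 1 log2 unit, the 3 genes with the nearest pattern were found as those with the smallest root mean square difference from it over the 4 arrays, after each gene was centred on its own mean. Nearest to Ntrk3 were the ephrin receptor gene Epha8, at 0.11 log2 units, then Sez6l and the homeobox gene Irx5, at 0.14 and 0.15. Epha8 read 9.41, 8.18, 9.05 and 10.06 in the order cerebellum, olfactory bulb, pontine nucleus and superior colliculus, the same order of regions as Ntrk3. Nearest to Ngfr were Msn, which encodes the membrane-cytoskeleton linker moesin, Rcor2, a transcriptional corepressor gene, and Nhsl1, at 0.04, 0.04 and 0.06. Nearest to Gfra1 were the protocadherin gene Pcdh20, the potassium-chloride cotransporter gene Slc12a5 and Tekt5, at 0.06, 0.07 and 0.09. Slc12a5 read 10.35, 10.80, 9.49 and 11.70. Nearest to Gfra2 were the GABA-A receptor subunit gene Gabrq, the homeobox gene Irx6 and the transcription factor gene Mecom, at 0.07, 0.08 and 0.09. Nearest to Ret were the zinc finger gene Zfp521, the kinase gene Nuak1 and the F-box gene Fbxl7, at 0.05, 0.07 and 0.10. Zfp521 read 11.28, 10.80, 12.32 and 11.10. With 4 arrays many of the 10908 genes can lie this close, and nothing about shared function or control follows from it.

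**Figure D3:**
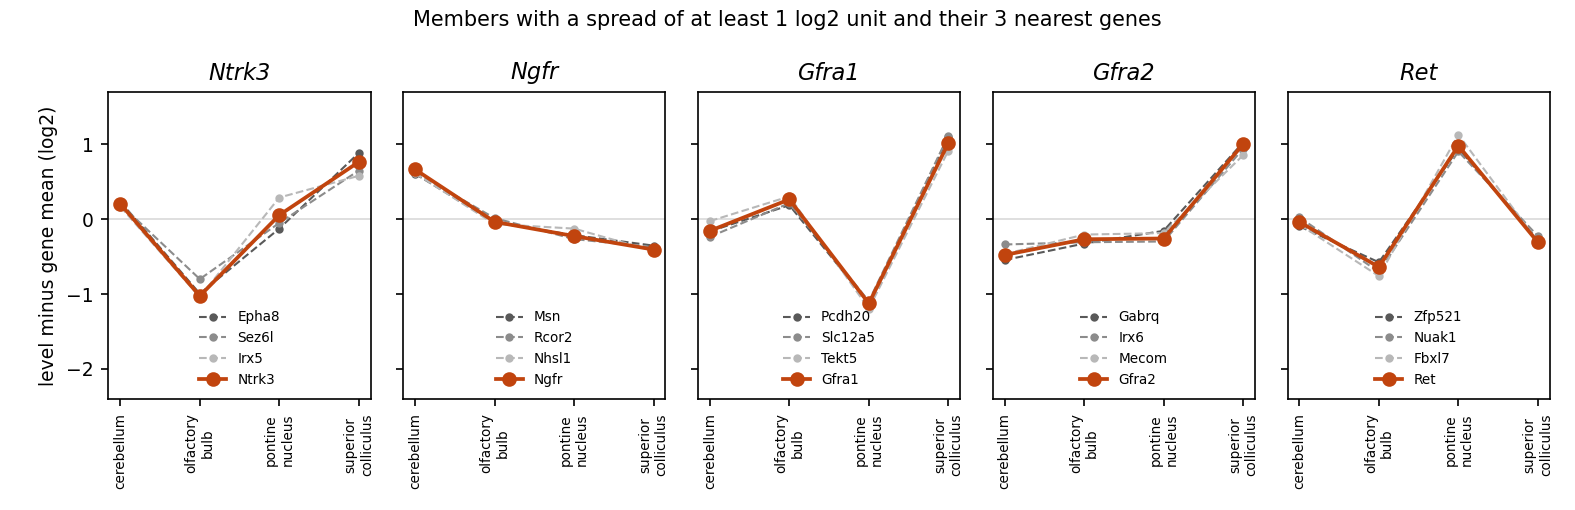
Level minus the gene's own mean over the 4 arrays (log2, vertical axis) by region for the 5 receptors with a spread of at least 1 log2 unit (red) and the 3 genes nearest to each (grey, dashed); lines only link the 4 arrays of a gene. Gfra1 dips in the pontine nucleus, where Ret peaks.

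The wider pathways were described through lists of ligands, receptors, adaptors, processing enzymes, responsive genes and other neurotrophic systems, which hold 98 genes besides the 8. Of these 87 were named and 67 compared. Among the 67, 8 were called higher or lower in a region, or 11.9% against 4.58% of all compared genes, and 21 had a spread of at least 1 log2 unit, or 31.3% against 15%. Because the lists were chosen with earlier results of these data known, these shares may reflect the choice of genes. In the olfactory bulb 2 of the 67 were called higher, where 0.972% of all compared genes were. The pontine nucleus had 2 called higher and 4 called lower, against 0.798% and 0.981%, and the cerebellum had 2 called lower, against 0.156%. None of the 67 was called in the superior colliculus, where 0.715% of all compared genes were called higher, a share at which a count of 0 is near the background.

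Among 10 neurotrophin receptors and co-receptors, 9 were compared, with a median spread of 0.88. In the superior colliculus 8 of the 9 exceeded the mean of the remaining arrays, compared with 49.8% of all compared genes, but the median difference was 0.22 against 0 over all compared genes, a small value beside the spread of the background genes. Besides Ntrk3, Sorl1, a sorting receptor gene related to sortilin, was called lower in the pontine nucleus, at 8.63 against at least 9.69. Its relative Sorcs3 was called lower in the cerebellum, at 9.28 against at least 10.43. Sort1, which encodes sortilin, the partner of p75 in binding unprocessed neurotrophins, was steady between 11.17 and 11.31. Of the 7 GDNF family receptor genes 5 were compared, with a median spread of 1.48, or 0.52 over all 7. Gfra4, the persephin co-receptor gene, ranged only from 8.64 to 9.03, and Ncam1, an alternative GDNF receptor, from 12.69 to 13.21. Gfra3, the artemin co-receptor gene, and Gfral lay below the level floor on all arrays.

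Among 31 adaptor and signalling genes, 25 were compared, with a median spread of 0.49. Dok5, an adaptor of Ret and Trk receptors, was called both higher in the pontine nucleus and lower in the cerebellum. It read 11.86 in the pontine nucleus, 10.83 in the colliculus, 10.34 in the bulb and 9.30 in the cerebellum, a 5.90-fold spread. Like Ret, Dok5 was highest in the pontine nucleus. Shc2, a neuronal Shc adaptor gene, was called lower in the pontine nucleus, at 7.79 against at least 8.81. Grb10 had a spread of 1.66 and Gab1 of 1.22 without a call. Core members such as Grb2, Plcg1 and Crk had spreads of 0.29, 0.20 and 0.07.

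No gene of neurotrophin processing and release was called out of 10 compared, which is near the 4.58% called among all compared genes, and their median spread was 0.90. Cadps2, which encodes a factor of dense-core vesicle release known in mouse cerebellar granule cells for BDNF and NT-3 release, read 10.13 in the cerebellum and 9.39 on the pontine array, but 8.14 in the bulb and 8.05 in the colliculus. It did not meet the rule for 1 region because both of the first regions were high. The proprotein convertase genes Pcsk1 and Pcsk6 had spreads of 1.30 and 1.25, the neuroserpin gene Serpini1 of 1.23, and Furin of 0.17.

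Of 15 genes known to respond to Trk and Ret signalling or neuronal activity 11 were compared. In the pontine nucleus 1 of the 11 exceeded the mean of the remaining arrays, compared with 49.5% of all compared genes, and the median difference was -0.42 against -0.00333 over all compared genes. The superior colliculus had the same count, 1 of the 11, compared with 49.8%, but a median difference of -0.07 against 0. In the olfactory bulb 10 of the 11 did, compared with 55.8% of all compared genes, with a median of 0.31 against 0.03. When all 15 genes were kept whatever their level, these medians were -0.23 in the pontine nucleus, -0.07 in the superior colliculus and 0.193 in the bulb. With the floor at the 75th percentile they were -0.62, -0.33 and 0.45 in the same order, so their size depends on the floor. Etv1, an ETS transcription factor gene, was called higher in the olfactory bulb, at 12.16 against at most 10.51. Its relative Etv5 read 10.49, 10.17, 8.77 and 9.07 in the order cerebellum, olfactory bulb, pontine nucleus and superior colliculus. Dusp6 and Spry2, feedback inhibitor genes of receptor tyrosine kinase signalling, were lowest in the pontine nucleus with spreads of 1.02 and 0.95. Neither was called.

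Of the other neurotrophic systems 13 genes of 23 were compared, with a median spread of 0.78, or 0.415 over the 20 named genes with no floor. Igf1, the insulin-like growth factor gene, had the widest spread of any listed gene, 3.67 log2 units or 12.7-fold. It read 11.46 in the bulb, 9.82 in the colliculus, 8.91 in the cerebellum and 7.79 on the pontine array, and was called both higher in the bulb and lower in the pontine nucleus. Met, the receptor gene of hepatocyte growth factor, was called higher in the pontine nucleus, at 9.19, which is 1.19 log2 units above the next region. Cntfr, the ciliary neurotrophic factor receptor gene, was called lower there, at 10.83 against at least 11.93. Mdk, which encodes midkine, read 11.70, 11.22, 10.30 and 10.19 in the order cerebellum, olfactory bulb, pontine nucleus and superior colliculus, without a call.

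**Figure D4:**
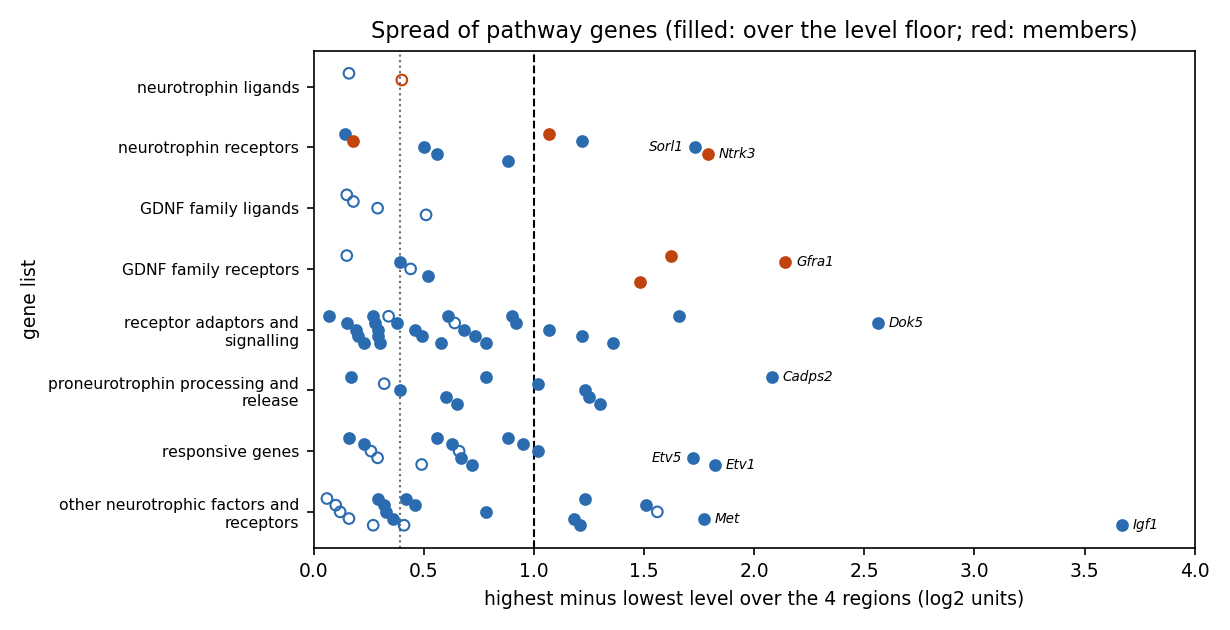
Spread of each named gene (horizontal axis, log2 units) by pathway list; each point is 1 gene, filled when compared and open when below the level floor on all arrays, red for the 7 listed members; genes with a spread of at least 1.7 are named. The dashed line is 1 log2 unit and the dotted line the median of all compared genes, 0.39; every ligand of both families is an open point, and Igf1 lies farthest to the right at 3.67.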

How the data were processed

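The authors' deposited table held log2 signals, 1 per probe set and array, to 2 decimals; the log2 scale was inferred from the values. They were made with Affymetrix Expression Console, per the submitters' processing notes; its algorithm, the normalization and a build are not named in the sources used here. Column medians lay between 8.07 and 8.13, so the columns were taken as scaled between arrays, which can hide a difference in total RNA. Of 35556 probe sets, 21789 had 1 symbol in the annotation of 2016 and were used. For 999 genes with several, the one with the highest mean was taken. Weak signals approach background, so folds against dim levels are compressed.

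No test was possible with 1 array per region. Calls used the level floor and size rule given above, applied to all 10908 compared genes. All 8 members were to be named, with every called gene and up to 4 of the widest spread per list, and other genes named were picked after their values were seen. The members and lists were chosen with earlier results of these data known. The size rule and the nearest-pattern search were run on simulated data. The planted differences there were larger than the gaps of the called receptors, the noise was that of the background genes, and the planted nearest gene was a near copy. Such a run does not cover calls near 1 log2 unit or differences between dissections. Alternatives were other floors, size rules and comparators, quantile normalization, median centring and the mean of probe sets. Python 3.11.15, NumPy 2.4.6, pandas 2.3.3 and Matplotlib 3.10.9 were used.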

Additional observations from a re-analysis of the deposited data

How the results depend on the processing

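Quantile normalization, median centring and the mean of probe sets moved the 49 spreads and pair differences of the 7 genes by at most 0.07 log2 units. Of 147 such values, 2 crossed the size rule, both under quantile normalization: Ret in the cerebellum minus the pontine nucleus went to -0.985 and Gfra1 for the same pair to 1.0025, so that 3 receptors were called there too but not the same 3. With a rule of 2 log2 units, 0 receptors and 0 other pathway genes were called, against 0.953% of all compared genes. Counts of 0 are near that share. A spread of at least 2 log2 units was seen for 1 receptor. With 0.5 log2 units, 5 receptors and 20 other pathway genes, 29.9% of those compared, were called, against 15.7% of all compared genes. With the mean of the other arrays as comparator, 15 other pathway genes were called, 22.4% against 9.76%. The choice of the lists with earlier results known limits these shares too. Lowering the floor mainly touched lists with dim members: with no floor the median spread of the GDNF family receptors was 0.52, and that of the other neurotrophic genes 0.415. With a floor at the 75th percentile Ngfr was not compared and several list medians moved. Among them, the median spread of the responsive genes went from 0.72 to 1.37. Of the 15 nearest genes, 14 were kept under quantile normalization. No paired analysis was possible because each region has 1 array. With 1 pooled preparation per region, spread between animals or dissections is unknown, and levels near 7.33 cannot be ordered.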
